A study of Mus musculus with 7 samples.

Results

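The glutathione S-transferase genes Gsta4, Gstm1, Gstm2, Gstm5, Gstm6, Gstp1, Gsto1, Gstt1, Mgst1 and Mgst3 were taken by symbol from a table of gene counts, and all 10 were found among its 23282 entries. The libraries came from adult C57BL/6 mice with glioblastoma, and each held RNA of tumour cells sorted for the red fluorescent protein tdTomato. There were 3 libraries of wild-type genotype (WT) and 4 of genotype FYN-KO (Fyn-KO), where Fyn is a tyrosine kinase of the Src family. No other allele, agent or time is named in the labels, and neither the altered part of Fyn nor the way the tumours were raised is given in the sources used here. QuantSeq reads 1 end of each polyadenylated RNA, the 3' end, and levels are given as counts per 1000000 counts of a library (CPM). A transcript gives about the same number of 3' tags whatever its length, so CPM were not divided by length.

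Glutathione S-transferases join the tripeptide glutathione to electrophilic compounds, which makes these more soluble and ready for export. The cytosolic enzymes fall into classes named alpha (Gsta), mu (Gstm), pi (Gstp), theta (Gstt) and omega (Gsto), while the microsomal enzymes (Mgst) belong to a separate family of membrane proteins, MAPEG. They are known from the liver as detoxifying enzymes, some are abundant in steroid-producing tissue, and in the brain mu and pi class enzymes are known from glia. Several are induced through NRF2 (Nfe2l2), a transcription factor that answers oxidative stress.

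Most of the genes lie beside copies of themselves, which decides what a 3' tag can tell apart. In GENCODE M21 on GRCm38, 7 mu class genes lie within 149074 bases of chromosome 3 (107895821 to 108044894), where Gstm5 is on the plus strand and Gstm1, Gstm2 and Gstm6 are on the minus strand. Gstp1 and Gstp2 lie side by side on the minus strand of chromosome 19 (4035407 to 4037985 and 4040285 to 4046023). Their coding sequences of 630 bases differ at 12 positions, the first at base 6 and the last at base 330. The first 60 and the last 60 coding bases are shown because the differences lie at the 5' side and the tags come from the 3' side. Capitals mark bases that differ, counted from 1 at the A of the start codon.
Gstp1 bases 1 to 60: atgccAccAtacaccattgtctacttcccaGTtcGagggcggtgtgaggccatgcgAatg
Gstp2 bases 1 to 60: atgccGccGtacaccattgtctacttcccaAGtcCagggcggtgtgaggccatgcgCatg
Gstp1 bases 571 to 630: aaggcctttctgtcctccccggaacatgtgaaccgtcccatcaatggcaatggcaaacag
Gstp2 bases 571 to 630: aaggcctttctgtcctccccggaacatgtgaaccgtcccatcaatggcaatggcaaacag

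The stretches at the start differ by the substitutions A6G, A9G, G31A, T32G, G35C and A57C (Gstp1 base, position, Gstp2 base), and the stretches at the end are identical. From the transcript ends backwards, 369 bases are the same in both genes. The deposited counts follow this. Gstp1 and Gstp2 had 1086 and 1087 counts in WT replicate 1, 6053 and 5928 in WT replicate 2, and 4251 and 4202 in WT replicate 3. In Fyn-KO replicates 1 to 4 they had 788 and 749, 789 and 830, 894 and 961, and 859 and 850. Gstp1 took 48.2% to 51.3% of the counts of the pair in every library, so each value given for Gstp1 belongs to the pair and the counts do not say which copy was transcribed. No other pair that includes one of the 10 genes shared a window of 50 bases in the last 300 bases of its transcript, among 29 pairs of the same class. The 21 mu class pairs were 66.6% to 89.5% identical in coding sequence, and none shared such a window.

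**Figure D1:**
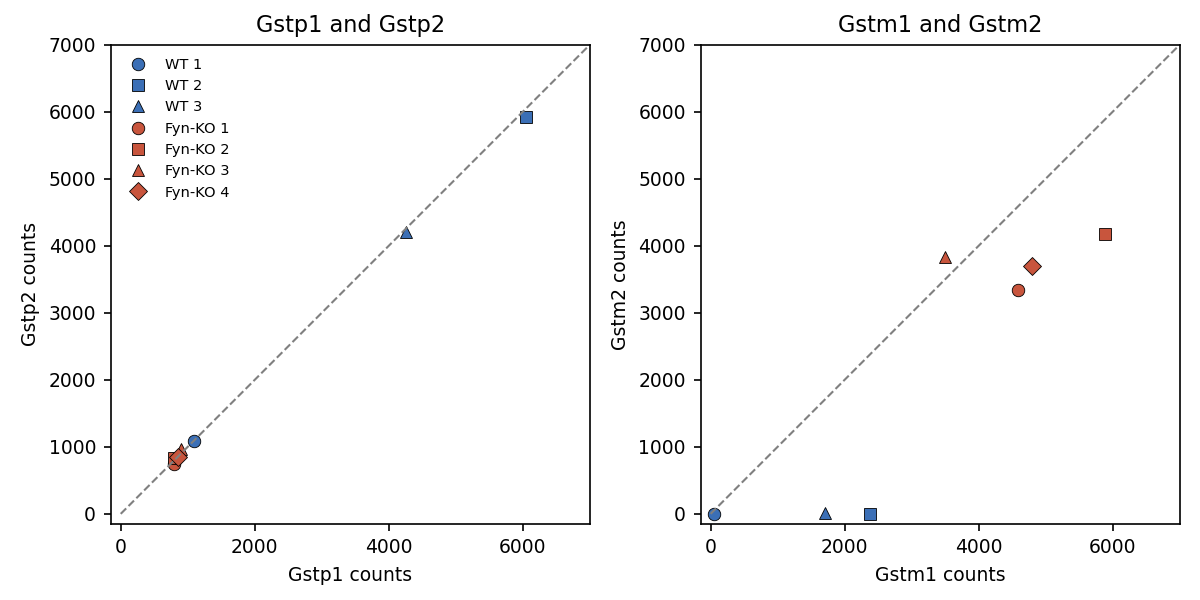
Counts per library of Gstp1 (x axis) against Gstp2 (y axis) on the left, and of Gstm1 against Gstm2 on the right, with each point 1 library and the dashed line marking equal counts. The Gstp pair lies on the line in all 7 libraries, while Gstm2 has 0 to 8 counts in the WT libraries, where Gstm1 has 49 to 2377.

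The libraries differed by more than genotype. They held 8976745 to 16371244 counts, and WT libraries held 7723 to 9924 genes with a count against 13535 to 14548 in Fyn-KO. Of 4827 genes at 100 CPM or more in a WT library, 2002 (41.5%) stood under 1 CPM in another WT library, against 1 of 2524 in Fyn-KO. Fyn stood at 720 to 1604 CPM in WT and 74.5 to 190 CPM in Fyn-KO. The 10 markers of the oligodendrocyte lineage summed to 13115 to 29474 CPM in WT and 225 to 1317 CPM in Fyn-KO, and none was at 0 throughout a group. The 15 markers of steroid-producing and ovarian cells summed to 96.2 to 479.9 CPM in WT and 25545 to 30286 CPM in Fyn-KO, and 8 of them (Cyp17a1, Cyp19a1, Nr5a1, Inhba, Lhcgr, Fshr, Amh and Akr1b7) had no count in WT. As sums, the oligodendrocyte lineage markers were thus high in WT and low in Fyn-KO, and the steroid-producing and ovarian markers the reverse. The labels nonetheless name both groups as glioblastoma cells. Of 8 tested astrocyte markers 4 fell and 0 rose, while Gja1 had the higher mean in Fyn-KO (75.5 ± 120 and 448 ± 118 CPM). The 10 liver markers summed to 272 to 697 CPM in WT and 118 to 173 CPM in Fyn-KO. In Fyn-KO 6 of them, Alb included, had no count, and Trf alone held most of the sum (111 to 164 CPM). The marker sums moved with the groups and so with every result below, and their part in the results was not tested. In such bulk samples fewer cells of a type and less RNA per cell cannot be told apart.

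Of the 10 genes, 6 rose in Fyn-KO (Gsta4, Gstm2, Gstm6, Gstt1, Mgst1 and Mgst3), 1 fell (Gsto1) and 3 did not pass the test (Gstm1, Gstm5 and Gstp1). All 10 passed the filter on low counts. Gsta4, Gstm2, Gstm6, Gstt1 and Mgst3 stayed below 10 counts in all WT libraries and passed through the Fyn-KO group alone. The direction of these 5 was thus fixed by the filter, though a call was not. The test was the edgeR quasi-likelihood test over 13122 genes, and a gene was called where its Benjamini-Hochberg adjusted p was under 0.05. Across all tested genes 19% rose and 3.51% fell. The median log2 fold change was 6.30 over the 10 genes and 0.45 over all tested genes, but the 5 genes nearly absent from WT set the first, and their fitted values are not measured sizes. CPM did not overlap between the groups for 8 of the 10 genes, where 37.4% of all tested genes did not. The 8 include the 5 genes that entered through Fyn-KO alone, which the filter favours here, so the 8 are not read against that share. The calls rest on the fit: limma-voom with quality weights called 0 of the 10 (adjusted p 0.0985 to 0.608), with 4 under an unadjusted p of 0.05. Gstm1, Gstm5, Gstp1, Gsto1 and Mgst1 reached 10 counts in 2 or more WT and 3 or more Fyn-KO libraries. In a fit of the 6446 such genes edgeR called 0 of these 5, with 4 under an unadjusted p of 0.05, where 0.807% of genes rose and 2.26% fell.

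**Figure D2:**
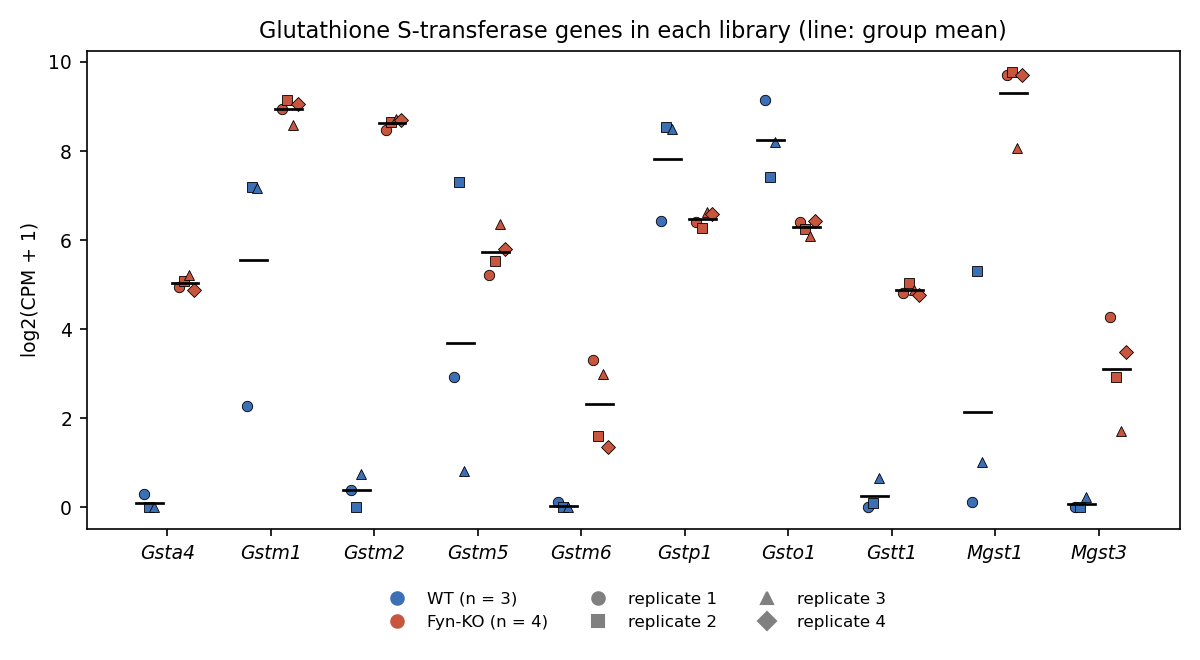
Levels of the 10 genes as log2(CPM + 1) (y axis) in the 3 WT libraries (blue) and 4 Fyn-KO libraries (red), with the marker shape giving the replicate and the line the group mean. Gsta4, Gstm2, Gstm6, Gstt1 and Mgst3 lie near 0 in WT, Gsto1 is the gene whose WT libraries all lie above the Fyn-KO libraries, and Gstm5 and Gstp1 overlap.

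In the mu class, Gstm2 (ENSMUSG00000040562.12, chromosome 3, 107981702 to 107986453) was nearly absent from WT and abundant in Fyn-KO. It measured 0.313, 0 and 0.672 CPM among the WT libraries against 357, 401, 419 and 413 CPM among the Fyn-KO libraries (397 ± 28.1, mean ± SD, n = 4). The WT libraries together held 12 counts of it, and the pooled counts gave a Fyn-KO over WT ratio of 1359 with a 95% exact counting interval of 778 to 2630. Its fitted log2 fold change was 9.99 ± 1.41 (SE) with an edgeR adjusted p of 0.0121. The groups did not overlap, and the call held whichever 1 library was left out (adjusted p 0.0043 to 0.0238).

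Gstm1 (ENSMUSG00000058135.12, chromosome 3, 108012255 to 108017973), the neighbour of Gstm2, was present in both groups. WT libraries held 3.84, 145 and 143 CPM of it (97.3 ± 80.9, n = 3), and Fyn-KO libraries held 489, 566, 383 and 534 CPM (493 ± 79.9, n = 4). All Fyn-KO libraries were above all WT libraries, and the means differed 5.07-fold (exact two-sided permutation p = 0.0286, the smallest that 35 splits allow). It did not pass the edgeR test (log2 fold change 2.22 ± 1.01, adjusted p = 0.169). WT replicate 1 stood apart from the other WT libraries, and without it Gstm1 passed (1.65, edgeR adjusted p = 0.0179).

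Gstm5 (chromosome 3, 107895821 to 107898686), a mu class gene on the opposite strand, showed no direction. It measured 6.57, 156 and 0.756 CPM among the WT libraries against 36.3, 44.9, 81.7 and 54.4 CPM among the Fyn-KO libraries. WT replicate 2 was above all Fyn-KO libraries and the other WT libraries were below them (log2 fold change 0.27 ± 1.43, edgeR adjusted p = 0.940). Without WT replicate 2 it passed as higher (3.83, adjusted p = 0.0434), and without WT replicate 1 or 3, or without Fyn-KO replicate 3, the sign turned (-0.24, -0.31 and -0.06). Gstm6 (chromosome 3, 107938847 to 107943749) was low throughout, at 0.0783, 0 and 0 CPM among the WT libraries against 8.84, 2.02, 6.90 and 1.56 CPM among the Fyn-KO libraries. With 1 count in all WT libraries the pooled ratio was 196 (95% exact counting interval 34.8 to 7788). It rose (edgeR adjusted p = 0.0162), and without WT replicate 3 it was at the threshold (adjusted p = 0.0501).

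The alpha class gene Gsta4 (ENSMUSG00000032348.6, chromosome 9, 78182774 to 78209349) encodes an enzyme that acts on 4-hydroxynonenal, an aldehyde of lipid peroxidation. It stood at 0.235, 0 and 0 CPM in WT, 3 counts in all, and at 29.6, 32.9, 36.1 and 28.3 CPM among the Fyn-KO libraries (31.7 ± 3.51, n = 4). The pooled ratio was 435 (95% exact counting interval 148 to 2112), and it rose (edgeR adjusted p = 0.0175). The call was lost without Fyn-KO replicate 1 or 2 (adjusted p 0.0521 and 0.0532).

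The theta class gene Gstt1 (chromosome 10, 75783813 to 75798584), whose enzyme acts on small halogenated compounds, had the same shape. It measured 0, 0.0611 and 0.588 CPM among the WT libraries against 27.2, 31.9, 28.6 and 26.2 CPM among the Fyn-KO libraries (28.5 ± 2.51, n = 4). The 8 WT counts gave a pooled ratio of 147 (95% exact counting interval 74.2 to 341). It rose with an edgeR adjusted p of 0.0388, and did not pass when any 1 of the Fyn-KO libraries was left out (adjusted p 0.0813 to 0.101) or with no filter on low counts (0.0552).

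Among the microsomal enzymes, Mgst1 (ENSMUSG00000008540.11, chromosome 6, 138140316 to 138156755), a transferase and peroxidase of the endoplasmic reticulum and outer mitochondrial membrane, had the largest gain in mean CPM of the 10 genes. It measured 0.0783, 38.7 and 1.01 CPM among the WT libraries (13.3 ± 22.0, n = 3) against 829, 868, 267 and 832 CPM among the Fyn-KO libraries (699 ± 289, n = 4), a 52.7-fold difference of means. That ratio rests on WT replicate 2, without which the WT mean was 0.543 CPM and the fitted log2 fold change 9.92. Fyn-KO replicate 3 was the lowest of its group and WT replicate 2 the highest of its own, and the groups did not overlap (exact permutation p = 0.0571). The log2 fold change was 5.94 ± 1.76 with an edgeR adjusted p of 0.0437. It did not pass when WT replicate 3 or any 1 Fyn-KO library was left out (adjusted p 0.0718 to 0.0967), with library sizes alone (0.0565) or among genes detected in both groups (0.125). Mgst3 (chromosome 1, 167371966 to 167393841), a microsomal enzyme with peroxidase activity, measured 0, 0 and 0.168 CPM among the WT libraries against 18.4, 6.54, 2.30 and 10.2 CPM among the Fyn-KO libraries. Its 2 WT counts gave a pooled ratio of 192 (95% exact counting interval 52.7 to 1590). It rose (edgeR adjusted p = 0.0331), but the adjusted p was 0.0580 once WT replicate 1 was left out and 0.0530 once Fyn-KO replicate 2 was, and 0.0522 with no filter on low counts.

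The omega class gene fell, and the pi class entry had a higher mean in WT without passing the test. Gsto1 (ENSMUSG00000025068.8, chromosome 19, 47854970 to 47864790), an enzyme with thiol transferase and dehydroascorbate reductase activity, measured 562, 170 and 295 CPM among the WT libraries (342 ± 200, n = 3) against 83.4, 74.4, 67.6 and 84.9 CPM among the Fyn-KO libraries (77.6 ± 8.08, n = 4). All WT libraries were above all Fyn-KO libraries, and the mean was 4.41 times as high in WT (exact permutation p = 0.0286). The log2 fold change was -2.25 ± 0.53 with an edgeR adjusted p of 0.0172, and without Fyn-KO replicate 2 the adjusted p was 0.0514. Among genes detected in both groups Gsto1 did not pass (-1.86, adjusted p = 0.0726). Its neighbour Gsto2 had 7 counts in Fyn-KO replicate 1 and 0 in the other libraries, too few to test.

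Gstp1, read with its copy Gstp2, measured 85.0, 369.7 and 357 CPM among the WT libraries (271 ± 161, n = 3) against 84.0, 75.9, 97.9 and 95.7 CPM among the Fyn-KO libraries (88.4 ± 10.3, n = 4). WT replicate 1 lay within the Fyn-KO range, and the other WT libraries were above it. The difference did not pass the edgeR test (log2 fold change -1.71 ± 0.61, adjusted p = 0.0766). With the counts of Gstp1 and Gstp2 summed the log2 fold change was -1.69 ± 0.54 (adjusted p = 0.0564). Without WT replicate 1 Gstp1 passed as lower (-2.15, adjusted p = 0.0145), and DESeq2 also called it (-1.73, adjusted p = 0.0491).

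**Figure D3:**
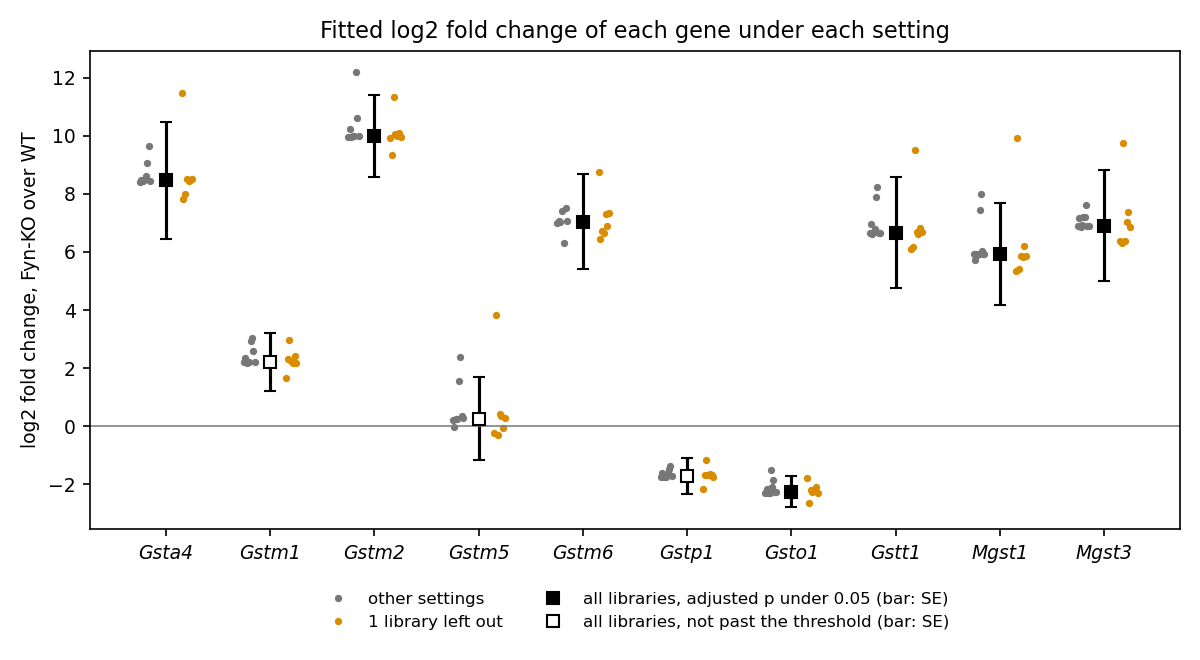
Fitted log2 fold change of Fyn-KO over WT (y axis) for each gene, as a square with its SE bar for all libraries (filled where the adjusted p was under 0.05), orange points for fits without 1 library and grey points for other settings. Gstm5 is the gene whose points fall on both sides of 0. The 6 genes that rose stay above 5 under every setting shown, while calls are lost in some. For Gsta4, Gstm2, Gstm6, Gstt1 and Mgst3, below 10 counts in every WT library, the direction was fixed. Their height is fitted and not a measured size.

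The make-up of the family differed between the groups. Gsto1 and Gstp1 took 85.4% and 12.9% of the counts of the 10 genes in WT replicate 1, 19.3% and 42.0% in WT replicate 2, and 37.0% and 44.7% in WT replicate 3. In the Fyn-KO libraries Gsto1 took 3.54% to 4.87% and Gstp1 3.61% to 7.04%. There Mgst1 (19.2% to 42.2%), Gstm1 (24.9% to 27.6%) and Gstm2 (18.2% to 30.1%) took most of the counts. Summed over the 10 genes the level was 658, 880 and 798 CPM in WT (778 ± 112, n = 3) and 1962, 2104, 1390 and 2080 CPM among the Fyn-KO libraries (1884 ± 335, n = 4). The sum of Gstm1, Gstm2 and Mgst1 was 4.23, 184 and 144 CPM in WT and 1674, 1835, 1069 and 1779 CPM among the Fyn-KO libraries, while that of Gstp1 and Gsto1 was 647, 539.5 and 652 CPM in WT and 167, 150.3, 166 and 181 CPM among the Fyn-KO libraries. With the Gstp2 entry added, the sum of the pi pair and Gsto1 was 732, 902 and 1004 CPM in the WT libraries and 230.2 to 275 CPM in the Fyn-KO libraries. Gsto1 was above the pi pair in WT replicate 1 and below it in the other WT libraries.

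**Figure D4:**
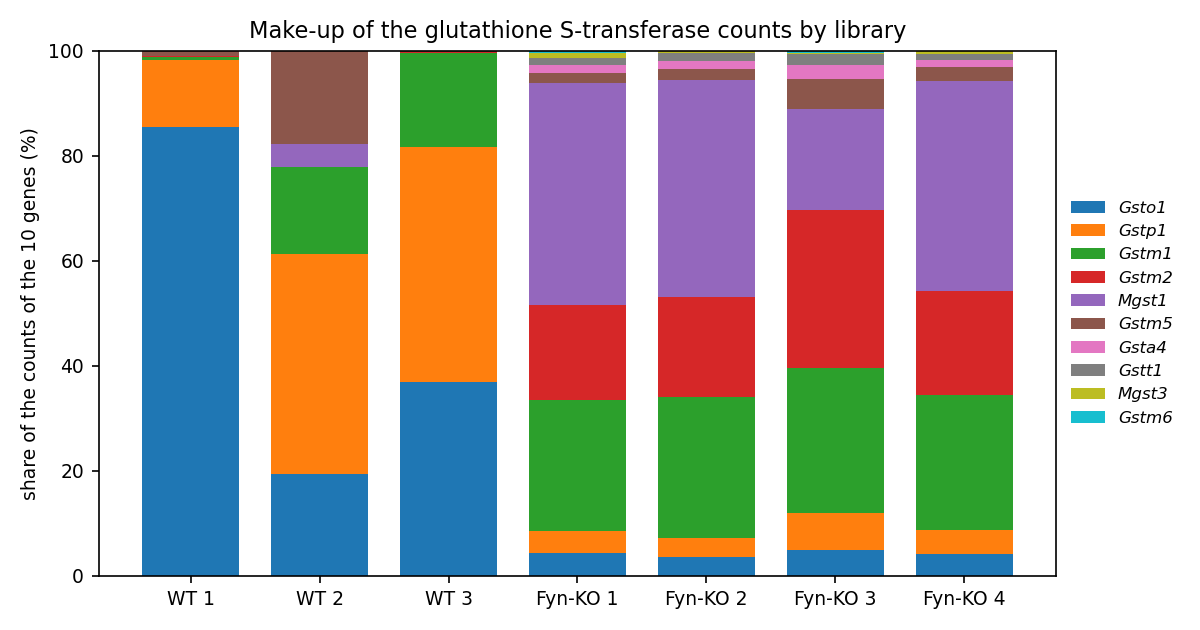
Share of the counts of the 10 genes (y axis, %) taken by each gene in each library (x axis). Gsto1 (blue) and Gstp1 (orange) together take 61.3% to 98.3% in the WT libraries, and Mgst1, Gstm1 and Gstm2 together take 76.9% to 87.2% in the Fyn-KO libraries.

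Of 19 other genes of the transferase classes and of MAPEG enzymes in the table, 14 were tested, of which 6 rose, none fell and 8 did not pass. The median fitted log2 fold change was 4.28, or 3.39 with Gsta2, which had no WT count, at its bound. With an unadjusted p under 0.05, 7 were higher and 1 was lower, and limma-voom called 0 of the 14. The 6 that rose were Gsta2, Gsta3, Gstt2, Gstz1, Mgst2 and Ptges. All 6 stayed below 10 counts in every WT library and entered the test through Fyn-KO alone. Their direction was thus fixed, though a call was not, and their number is not set against other genes. Of the 14, 7 were this low in WT. Ptges, the microsomal prostaglandin E synthase, measured 0.0560 ± 0.0969 CPM among the WT libraries (n = 3) against 27.7 ± 6.34 CPM among the Fyn-KO libraries (n = 4). Mgst2, which can also make leukotriene C4, stood at 0.0560 ± 0.0969 and 44.7 ± 12.01 CPM. Gstz1, an enzyme of tyrosine breakdown, stood at 0.263 ± 0.385 and 29.5 ± 4.60 CPM, and its call was lost when WT replicate 3 or any 1 Fyn-KO library was left out. The calls of Ptges (adjusted p 0.0540 and 0.0539) and Gstt2 (0.0544 and 0.0507) were lost without Fyn-KO replicate 1 or 2. Gstt2, a theta class gene, averaged 0.0560 ± 0.0969 and 12.8 ± 7.03 CPM. Gsta3 stood at 0.156 ± 0.0954 and 17.6 ± 7.38 CPM. No WT library held a count of Gsta2, and its Fyn-KO mean of 6.04 ± 5.98 CPM was at least 23.97-fold higher against a floor of 3 counts in the smallest WT library. The Fyn-KO libraries spread from 0.223 to 12.8 CPM, the adjusted p was 0.0608 and 0.0592 without WT replicate 1 or 3, and Gsta2 was not tested without Fyn-KO replicate 1, 2 or 3. It is 97.6% identical to Gsta1 in coding sequence, so tags of this pair may be assigned to either.

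Several family genes were high in 1 WT library alone. Gstm7 was at 0, 55.9 and 0.0840 CPM in the WT libraries, Gstk1 at 0.0783, 42.9 and 0.168 CPM, and Gstt3 at 0.0783, 50.8 and 0.336 CPM. Hpgds, the haematopoietic prostaglandin D synthase, was at 0.235, 51.4 and 0 CPM. Those 4 were high in WT replicate 2, while Alox5ap, which presents arachidonic acid to 5-lipoxygenase, was high in WT replicate 3 (0.157, 0 and 41.1 CPM). In Fyn-KO the first 4 stood at 69.5 ± 26.9, 44.7 ± 6.08, 12.1 ± 3.53 and 7.81 ± 1.66 CPM, and none passed (edgeR adjusted p 0.579 to 0.953). Without WT replicate 2, 11 of 15 tested genes of this group rose, where the share of all genes that rose went from 19% to 32.8%. In that fit Gstm7, Gstk1 and Gstt3 were near 0 in WT as well, so their direction was fixed too. The 11 are therefore not read against that share. Without Fyn-KO replicate 1 or 2, 2 of 12 rose, where that share was 17.7% and 17.8%. WT replicate 2 was also the library with the most counts and the most genes among the WT libraries.

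Of 21 tested genes that make and recycle glutathione, 4 rose, 1 fell and 16 did not pass (19% and 3.51% of all tested genes rose and fell), with a median log2 fold change of 1.46. Of the 4, Idh1 is the 1 that did not enter the test through Fyn-KO alone. Idh1, the cytosolic isocitrate dehydrogenase that makes NADPH, rose from 249 ± 80.7 CPM in WT (n = 3) to 1776 ± 688 CPM in Fyn-KO (n = 4), 7.14-fold, with a log2 fold change of 2.68 ± 0.49 (edgeR adjusted p = 0.0121). Ggt5, a gamma-glutamyl transferase that cleaves leukotriene C4, Chac2, which degrades glutathione, and Cth, which makes cysteine from cystathionine, had no count in WT. Their Fyn-KO means of 22.6 ± 7.69, 5.43 ± 1.67 and 4.89 ± 2.79 CPM were at least 89.6-fold, 21.6-fold and 19.4-fold higher than that floor. Slc1a1, a transporter of glutamate and cysteine, fell from 215 ± 98.4 to 5.48 ± 4.17 CPM (-5.36 ± 0.999, adjusted p = 0.0121). The subunits of the rate-limiting ligase, Gclc (5.63 ± 9.40 and 53.8 ± 22.5 CPM) and Gclm (10.9 ± 18.8 and 39.3 ± 18.4 CPM), did not pass (adjusted p 0.214 and 0.547). Me1, a malic enzyme that makes NADPH, measured 378, 213 and 0.168 CPM among the WT libraries against 2615 ± 491 CPM among the Fyn-KO libraries and did not pass (adjusted p = 0.124). Slc3a2, a subunit of the cystine transporter, differed by less than its spread (446 ± 359 and 404 ± 85.9 CPM). Pgd, which makes NADPH (81.0 ± 77.4 and 156 ± 32.1 CPM), and the peptidase Lap3 (118 ± 52.8 and 51.5 ± 10.7 CPM) did not pass either. Without WT replicate 2, 9 of 22 tested rose, beside 32.8% of all genes.

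Of 16 tested peroxidases and partners of glutathione, 2 rose and none fell, where 19% and 3.51% of all tested genes did, with a median log2 fold change of 0.97. Gpx3, the secreted glutathione peroxidase, rose from 59.6 ± 20.8 CPM in WT (n = 3) to 2290 ± 1282 CPM in Fyn-KO (n = 4), 38.4-fold, with a log2 fold change of 5.17 ± 0.63 (edgeR adjusted p = 0.0110). It stood at 1759, 1533, 4208 and 1661 CPM in the Fyn-KO libraries, and the call held whichever 1 library was left out. Abcc4, an export pump, had 2 counts in WT and 13.9 ± 2.72 CPM in Fyn-KO, and entered the test through Fyn-KO alone. Gpx1, the main cytosolic peroxidase, stood at 401 ± 298 and 741 ± 118 CPM and did not pass (adjusted p = 0.545), nor did Gpx4, the phospholipid peroxidase, at 31.3 ± 47.1 and 106 ± 7.41 CPM (adjusted p = 0.562). Glrx5, a mitochondrial glutaredoxin (326 ± 386 and 167 ± 45.4 CPM), Esd (170 ± 162 and 244 ± 81.5 CPM) and Prdx6 (103 ± 128 and 179 ± 18.1 CPM) were also not past it. None was lower at an unadjusted p under 0.05. Without WT replicate 2 or 3, 5 of this list rose, beside 32.8% and 22.1% of all genes.

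Of 25 tested regulators and targets of NRF2, 4 rose, none fell and 21 did not pass, where 19% and 3.51% of all tested genes rose and fell, with a median log2 fold change of 1.03. The 4 were Mafk, a small Maf partner of NRF2 (0.108 ± 0.0938 and 15.03 ± 3.63 CPM), Prdx1, a peroxiredoxin (294 ± 95.7 and 964 ± 259 CPM, log2 fold change 1.68 ± 0.30), Ephx1, the microsomal epoxide hydrolase (2.27 ± 3.59 and 103 ± 17.6 CPM), and Ftl1, the ferritin light chain (374 ± 31.8 and 803 ± 91.3 CPM). Mafk had 4 WT counts and entered the test through Fyn-KO alone. Ephx1 had 2, 105 and 3 counts in WT replicates 1 to 3, so its WT level rests on replicate 2. The call of Ephx1 was lost when any 1 Fyn-KO library was left out, and that of Ftl1 in all but 2 of the fits that left out a library. At an unadjusted p under 0.05, 2 of the list were lower. The ferritin heavy chain Fth1 (999.98 ± 213 and 1087 ± 339 CPM), the thioredoxin Txn1 (326 ± 3.79 and 337 ± 111 CPM) and Taldo1 (848 ± 676 and 364 ± 61.8 CPM) did not pass. Nfe2l2 itself measured 96.0, 0 and 0.672 CPM among the WT libraries against 193 ± 26.9 CPM among the Fyn-KO libraries (adjusted p = 0.463). Nqo1, a quinone reductase often used as a readout of NRF2, stood at 6.77 ± 11.6 and 8.65 ± 4.90 CPM (adjusted p = 0.888). Without WT replicate 2, 13 of the list rose and 2 fell, beside 32.8% and 6% of all genes, and without WT replicate 3, 7 rose, beside 22.1%. Without Fyn-KO replicate 1, 2 or 4, 2 rose, beside 17.7% to 19% of all genes.

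**Figure D5:**
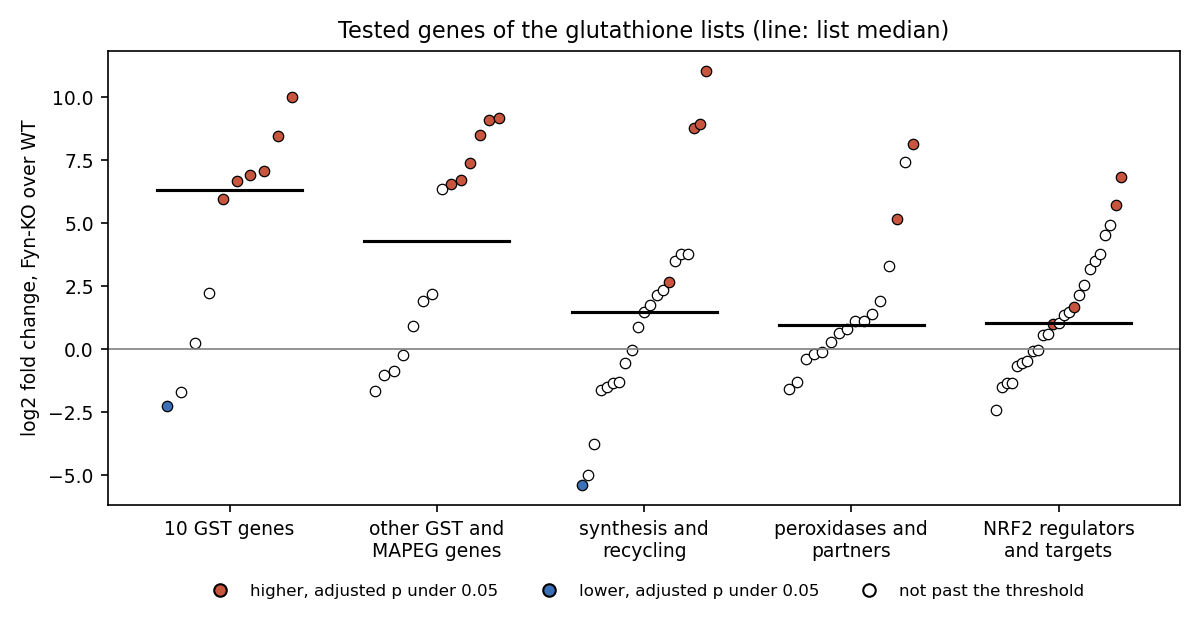
Fitted log2 fold change of Fyn-KO over WT (y axis) of each tested gene in the 10 transferase genes and the 4 related lists (x axis), with red for genes that rose, blue for genes that fell, white for genes not past the threshold and the line at the list median. The points above 6 are all genes that stayed below 10 counts in every WT library, so their height is fitted and not a measured size.

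The promoters of the 10 genes, whether they rose or not, were searched on both strands for 2 motifs. These were the core of the antioxidant response element, TGACNNNGC, and the steroidogenic factor 1 site, AAGGTCA. RefSeq promoters on GRCm38.p6, from 250 bases before to 50 after a start, were found for 9 of the 10 genes, 13 promoters in all. Gsta4, which rose, had none, and some genes had several starts, so the shares below are of promoters and not of genes. The antioxidant core was in 2 of the 13 (15.4%), beside 12.4% of 32851 promoters, and the steroidogenic factor 1 site was in none, beside 4.72%. The matches were in a promoter of Mgst1, which rose, and in that of Gstm5, which showed no direction. A further Mgst1 promoter (138141337 to 138141636) had no match. Both matching promoters are shown with the match in capitals, which starts at -56 in Mgst1 (read on the opposite strand) and at -42 in Gstm5 relative to the start.
Mgst1, chr6:138140277-138140576, plus strand: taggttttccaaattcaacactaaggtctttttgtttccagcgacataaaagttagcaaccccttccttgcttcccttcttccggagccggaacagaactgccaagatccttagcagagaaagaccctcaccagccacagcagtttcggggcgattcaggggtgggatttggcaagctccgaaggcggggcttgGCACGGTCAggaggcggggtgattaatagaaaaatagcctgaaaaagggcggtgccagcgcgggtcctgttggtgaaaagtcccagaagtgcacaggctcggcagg
Gstm5, chr3:107895604-107895903, plus strand: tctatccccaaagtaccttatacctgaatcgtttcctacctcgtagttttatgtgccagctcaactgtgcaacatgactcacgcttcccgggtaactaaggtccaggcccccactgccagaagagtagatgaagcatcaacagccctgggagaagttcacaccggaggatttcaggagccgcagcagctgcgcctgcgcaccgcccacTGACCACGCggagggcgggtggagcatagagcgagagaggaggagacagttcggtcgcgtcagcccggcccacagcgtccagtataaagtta

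A match is a run of letters and not a bound site, and the absence of one says only that these letters are not in the window.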

How the data were processed

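The table holds whole-number counts of 3' tags per gene and library, deposited by the authors under a name that calls them modified, with the kind of change not stated here. Per the submitters' processing notes, Bowtie2, bedtools and DESeq2 1.32.0 were used with mm10 (GRCm38). Libraries were made with the Lexogen QuantSeq kit, per the labels' protocols. The third WT column shares its name with the title of a different WT sample, and entered as a WT library of unknown sample. No molecular identifiers are named, so intervals and floors (3 counts per library, 0.252 CPM for the smallest WT library) cover counting error only. Whether each library is a separate mouse follows from the series' design text, and p-values rest on the spread between libraries.

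The 13122 genes that filterByExpr kept (edgeR 4.0.16, R 4.3.3, minimum count 10, total 15) entered one two-sided quasi-likelihood test of Fyn-KO against WT with TMM normalization. SE is approximate, the size of the log2 fold change divided by the root of F. Single values were compared by an exact permutation test over 35 splits. Means carry SD. Fitted log2 fold changes of genes with almost no WT counts are not measured sizes. The scripts were tested on simulated data whose groups had equal spread, which WT and Fyn-KO here do not have. The alternatives were DESeq2 1.42.0 and limma-voom (limma 3.58.1), RLE factors or library sizes alone, a minimum count of 50 or none, a replicate block, summed copies, no Rn45s, genes detected in both groups, and each library left out. The text names all 10 members, and from 4 lists the genes past the threshold and up to 4 others by mean CPM. Hpgds, Alox5ap, Gsto2, Gclc, Gclm, Gpx4, Nfe2l2 and Nqo1 lie outside this rule and were chosen after their values were seen. The members, lists and motifs were chosen with earlier results of these data known. Astrocyte, adrenal, airway, macrophage and endothelial markers were also measured, summing to 2800 to 4582, 0, 119 to 799, 202 to 471 and 0.704 to 1064 CPM in WT and to 510 to 667, 317 to 396, 1.81 to 10.4, 383 to 464 and 288 to 339 CPM in Fyn-KO.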

Additional observations from a re-analysis of the deposited data

Results flagged for a closer look

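In the group of 4 Fyn-KO libraries, 28 values were checked for a library far from the others, and 5 were found. The rule flags about 1 in 20 independent values by chance. These values come from the same 4 libraries and are not independent, so the 5 are not read against that rate. The gap to the nearest library, as a share of the group's range, was 0.934 for Mgst1, where Fyn-KO replicate 3 stood at 267 CPM and the others at 829 to 868 CPM. It was 0.915 for Gpx3 (4208 CPM in replicate 3, 1533 to 1759 CPM in the others), 0.893 for Idh1 (748 CPM in replicate 3, 2045 to 2200 CPM in the others) and 0.864 for Prdx1 (579 CPM in replicate 3, 1062 to 1139 CPM in the others). For Chac2 it was 0.852, with 7.91 CPM in replicate 4 and 4.38 to 4.90 CPM in the others. Fyn-KO replicate 3 was thus the library apart in 4 of the 5. It also had the highest share of Rn45s (16.6% of its counts, against 10.5% to 10.98%), the highest sum of oligodendrocyte lineage markers (1317 CPM, against 225 to 702 CPM) and the lowest sum of steroidogenic and ovarian markers (25545 CPM, against 29087 to 30286 CPM). The part of these in the values was not tested.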

How the results depend on the processing

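Calls were lost under several alternatives, while the direction turned in Gstm5 alone. Of the named genes, 5 of the 10 members and the 6 other family genes that rose stayed below 10 counts in every WT library. So did 3 synthesis genes, 1 peroxidase partner and 1 NRF2 gene that rose. The direction of all of these was fixed by the filter, so its being kept is not a check. Over the fits of 27 named genes under the alternatives, 332 kept their side of the threshold and direction, 86 lost the call, 4 gained one (Gstm1 and Gstp1 without WT replicate 1, Gstp1 with DESeq2, and Gstm5, at 3.83, without WT replicate 2) and 4 turned, all of the 4 in Gstm5 (-0.02 with library sizes alone, -0.24, -0.31 and -0.06 without WT replicate 1, WT replicate 3 and Fyn-KO replicate 3). With limma-voom and quality weights 0 of the 10 genes were higher and 0 lower, and 0 were higher in each related list, where 24 of all 13122 genes rose and 320 fell. At an unadjusted p under 0.05 limma-voom had 2 of the 10 higher and 2 lower. Same-numbered libraries did not deviate together (correlations -0.0138, -0.00729 and -0.0250), so no pairing by number was seen. The check cannot exclude one, since WT libraries spread widely and the sample of the third WT column is unknown. With a replicate block 2 of the 10 were higher (Gstm2 and Mgst1) and 0 lower, 0 of the other family genes, 2 synthesis genes, 1 peroxidase gene and 1 NRF2 gene were higher, and 0 synthesis genes were lower. In that fit 1.43% of all genes rose and 1.03% fell. Among genes detected in both groups 0 of the 5 members that could be tested were higher and 0 lower, with 0 of 1 other family, 1 of 8 synthesis, 1 of 10 peroxidase and 2 of 10 NRF2 genes higher. Of all such genes 0.807% rose and 2.26% fell. DESeq2 gave 2 of the 10 lower, and 7 synthesis genes higher, 7 NRF2 genes higher and 1 lower, beside 27.2% of all genes higher and 7% lower. A minimum count of 50 gave 2 synthesis genes higher, beside 17.5% of all genes. Leaving out 1 library gave 2 to 7 of the 10 higher (2 without Fyn-KO replicate 2, 3 without Fyn-KO replicate 1) and 0 to 2 lower, 2 to 11 other family genes higher and 0 to 1 lower, 4 to 9 synthesis genes higher, 2 to 5 peroxidase genes higher, and 2 to 13 NRF2 genes higher and 0 to 2 lower. Over these fits 17.7% to 32.8% of all genes rose and 1.99% to 6% fell. The cause was not tested. The summed level of the 10 genes differed 2.42-fold, and 2.68-fold without Rn45s in the total. That sum leaves out Gstp2, which holds about as many counts as Gstp1. Over all 24 Gst and Mgst entries the level differed 2.02-fold, and 2.24-fold without Rn45s. For 5 of the 10 genes the WT counts were under 10 in each library. The intervals given for them cover counting error alone and not the spread between libraries, so they do not bound the size of the fold.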

Other observations

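Mgst1 had the highest mean level of the 10 genes over the 7 libraries, and the 5 genes whose log2(CPM + 1) followed it most closely were Cmtm3, Wwtr1, Hspa1b, Efhd1 and Mtx2 (Pearson's r 0.996 to 0.999 over 7 libraries, which share depth and group). They were chosen for following Mgst1. In WT replicate 2 they stood at 5.19 to 22.5 CPM against 0.588 CPM or less in the other WT libraries, and each was lowest in Fyn-KO replicate 3 within its group, while the order of the other Fyn-KO libraries differed from that of Mgst1. Wwtr1, the transcriptional coactivator TAZ, measured 0.0783, 17.8 and 0.504 CPM among the WT libraries against 141, 134, 72.1 and 150 CPM among the Fyn-KO libraries. Efhd1, a mitochondrial calcium-binding protein, measured 0, 22.5 and 0 CPM among the WT libraries against 252, 274, 115 and 221 CPM among the Fyn-KO libraries. These are descriptions of 7 libraries that fall into separate groups, and a correlation over them reads mostly the difference between the groups.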
